A study of Mus musculus with 6 samples.

Results

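The genes described here are 49 genes of the cell division cycle in mouse liver, chosen by gene symbol from a list of cyclins, DNA replication genes and genes of mitosis. Of these, 48 had a probe on the arrays, out of 16887 named genes measured, and Ccnb1, which encodes cyclin B1, was not measured here. The members fall into 4 G1 to S regulators, 10 DNA replication genes and 35 genes of mitosis. The mitosis genes are split by role into 10 genes of S to G2 and mitotic entry, 13 of the kinetochore and spindle checkpoint, and 12 of the spindle, mitotic exit and cytokinesis.

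A cell that divides first commits in G1, where D-type and E-type cyclins activate their kinases and release E2F factors. Helicase, polymerase and nucleotide synthesis genes then serve the copying of DNA, and kinases, kinetochore proteins and kinesins divide the chromosomes. Most hepatocytes of the adult liver rest outside the cycle and re-enter it after injury or loss of tissue, so transcripts of this machinery are scarce in a resting liver.

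Liver RNA of individual C57BL/6 mice, 7 weeks old, was hybridised on 2-colour oligonucleotide arrays against pooled liver RNA of 6 chow-fed mice, with 1 mouse per array. The lovastatin mice (2 arrays) ate a high-fat cholesterol (HFC) diet for 12 days. From day 5 they received lovastatin, a statin that inhibits cholesterol synthesis, by mouth once daily at 30 mg/kg. The fenofibrate mice (2 arrays) ate the same diet and received fenofibrate, an activator of the nuclear receptor PPARα, from day 5 at 100 mg/kg. The HFC mice (2 arrays) ate the diet with vehicle, per the series' design text. In the lovastatin group the titles say lovastatin while the treatment field says fenofibrate at 100 mg/kg. The titles were followed, and the dose was taken as 30 mg/kg, so that field conflicts with both drug and dose. All 6 mice therefore share the HFC diet, and the chow pool is the only sample without it. It is a pool on every array, so the spread between chow mice is not measured, and all comparisons with chow share it. The mouse carried Cy5 on the lovastatin and HFC arrays and Cy3 on the fenofibrate arrays, so fenofibrate and dye cannot be told apart gene by gene.

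Each value below is a log2 ratio of the mouse over the chow pool on the same array, so that 1 stands for a 2-fold higher signal in the mouse. The base of the logarithm was taken as 2 by convention, and the direction is likely but not stated. It rests on the order of the channels in the labels, and both dye orientations seem to be read alike, since a repeated control took values of -9.71 to -4.20 where the mouse was in Cy5 (4 arrays) and values of 4.83 and 4.95 where it was in Cy3 (2 arrays). Ratios carry no level, so neither the liver identity of the samples nor the abundance of a transcript can be read from them.

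A pair of arrays stood apart before any result. On lovastatin replicate 1 the values of all probes had an SD of 1.09, against 0.419 to 0.570 on the other arrays. On HFC replicate 2, 10703 of 21288 probes (50.28%) lie in blocks of spots that did not match the other arrays (correlation across probes -0.0374 to 0.0232) and matched after a shift along the array (0.299 to 0.315). These displaced spots were set to missing, which leaves 25 of the 48 members with a value on that array. Their values after the shift is undone are called put back, and results that rest on either array are given with and without it. Pairs are given as replicate 1 and then replicate 2.

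Across arrays, the members lay mostly above the chow pool. The median over the members was 0.70 on lovastatin replicate 2, where 42 of 48 were above 0, and -0.04 on lovastatin replicate 1, where 21 were. On the fenofibrate arrays it was 0.78 and 1.12, with 42 and 48 members above 0. On HFC replicate 1 it was 0.48 with 43 above 0, and on HFC replicate 2 it was 0.19 with 19 of 25 above 0 (0.16 and 31 of 46 put back). The fenofibrate arrays and lovastatin replicate 2 thus stood highest, and lovastatin replicate 1 lowest. Array medians over all features lay between -0.02 and 0.03.

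**Figure D1:**
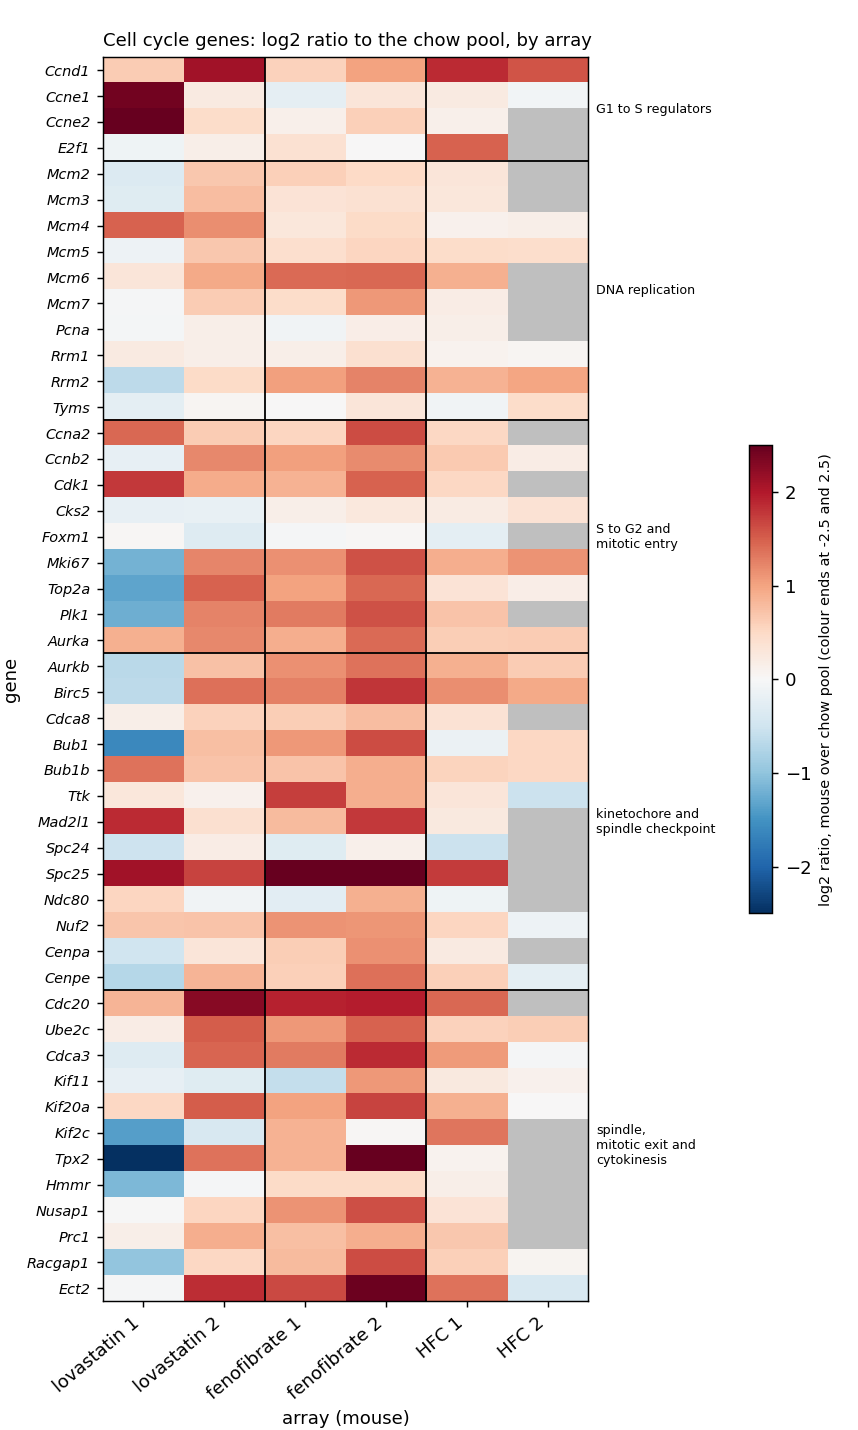
Log2 ratio of the mouse over the chow pool (colour) for each of the 48 measured members (rows, grouped by role) on each of the 6 arrays (columns), with displaced spots of HFC replicate 2 in grey. Most rows are above 0 on both fenofibrate arrays and on lovastatin replicate 2, while lovastatin replicate 1 holds both the lowest value (Tpx2, -2.72) and the highest (Ccne2, 3.42).

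Of the 48 members, 16 (33.3%) were above 0 on every array that measured them, as were 7.32% of all 18795 features. No member was below 0 on every array (0 of 48), as were 7.11% of all features. Leaving aside lovastatin replicate 1, 32 members (66.7%) were above 0 on every other array with a value, beside 10.8% of all features. In bulk liver, more dividing cells and more of these transcripts per cell cannot be told apart.

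The comparison that weighs both dye orientations equally sets all HFC-fed mice, whatever their drug, against the chow pool (a weight of 0.25 on the lovastatin mean, 0.5 on the fenofibrate mean and 0.25 on the HFC mean). Spc25 was the member that rose, to 2.18 (SE 0.136, 95% interval 1.82 to 2.55, limma adjusted p = 0.0220), a 4.54-fold difference. That is 1 of 48 members, where 110 of 19447 features (0.566%) passed, 33 higher and 77 lower. Passing here means a p from the limma fit, adjusted by Benjamini-Hochberg over all features, under 0.05. Of the 48 members, 46 had an estimate above 0 (51.1% of all features did), and the median estimate was 0.70 against 0.01 over all features. An unadjusted p under 0.05 with a higher estimate was found for 27 members (56.2%), where 5.19% of all features had one, and for 0 members with a lower estimate, where 5.63% had one. The members were gathered with earlier results of these data known, so these shares describe the list and do not test it.

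**Figure D2:**
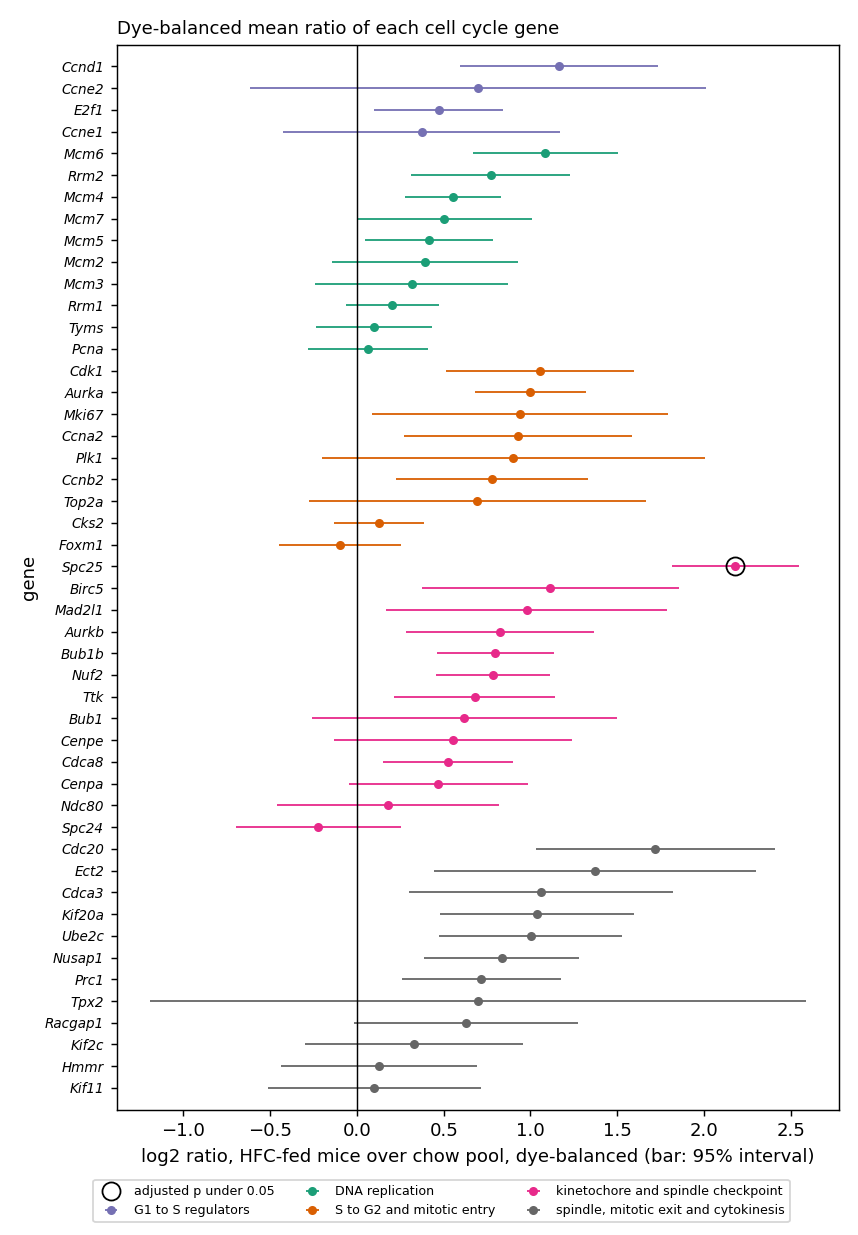
Dye-balanced log2 ratio of HFC-fed mice over the chow pool for each member (points, coloured by role) with its 95% interval from the limma fit (bars). The ringed point, Spc25 at 2.18, is the member past the threshold, and Foxm1 (-0.10) and Spc24 (-0.22) are the members with an estimate below 0.

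Spc25 is a subunit of the Ndc80 complex, which ties kinetochores to spindle microtubules. It was at 2.09 and 1.68 in the lovastatin mice, at 2.49 and 2.60 in the fenofibrate mice and at 1.75 in HFC replicate 1, with 1.31 put back in HFC replicate 2. All 5 arrays measured in place lay at 1.68 or more, and the fenofibrate arrays were the highest. The spot as deposited in HFC replicate 2 reads 0.02, and with such spots used as deposited the estimate was 1.96 (limma adjusted p = 0.0618), so the call ends there. Put back, it was 2.13 (limma adjusted p = 0.00468). The call also ended without fenofibrate replicate 1 (2.21, limma adjusted p = 0.439) or fenofibrate replicate 2 (2.15, limma adjusted p = 0.531), and without both arrays that stood apart (2.13, limma adjusted p = 0.0535). Lovastatin replicate 1 alone left out gave 2.13, in a fit with 1 lovastatin array left.

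Genes of mitosis are known for a shared promoter layout: a cell cycle homology region (CHR) near the transcription start, bound by the MuvB core of the DREAM complex, with CCAAT boxes upstream that NF-Y binds. E2F sites are the better known element of replication genes. RefSeq windows of 250 bases before and 50 after the start (GRCm38.p6) were found for 40 of the 49 members, 43 windows in all. Those of Spc25, Cdc20 and Ube2c, mitosis members whose ratios are described here, and of Mcm6, a replication gene, are shown over the last 120 bases before and the first 30 after the start, 5′ to 3′ on the gene's own strand. Capitals mark matches to the CHR (TTTGAA or TTCGAA), the CCAAT box (CCAAT) and E2F sites (TTTCCCGC, TTTGGCGC, TTTCGCGC or TTTGCCGC) on either strand, so that ATTGG is a CCAAT box and TTCAAA a CHR read backwards.
Spc25, chr2:69206184-69206333, minus strand: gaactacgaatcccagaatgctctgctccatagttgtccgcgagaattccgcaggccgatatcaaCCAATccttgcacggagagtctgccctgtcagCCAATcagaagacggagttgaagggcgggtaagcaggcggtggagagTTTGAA
Cdc20, chr4:118437314-118437463, minus strand: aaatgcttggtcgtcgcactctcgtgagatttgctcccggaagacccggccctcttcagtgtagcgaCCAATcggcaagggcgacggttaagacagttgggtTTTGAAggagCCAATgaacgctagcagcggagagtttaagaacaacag
Ube2c, chr2:164769809-164769958, plus strand: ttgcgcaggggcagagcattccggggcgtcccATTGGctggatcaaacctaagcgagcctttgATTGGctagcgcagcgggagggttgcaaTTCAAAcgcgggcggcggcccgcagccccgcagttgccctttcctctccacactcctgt
Mcm6, chr1:128359676-128359825, minus strand: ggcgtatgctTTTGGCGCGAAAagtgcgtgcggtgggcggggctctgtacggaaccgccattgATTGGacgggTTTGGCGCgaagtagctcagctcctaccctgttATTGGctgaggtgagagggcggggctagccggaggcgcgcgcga

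In this window each of the 3 mitosis genes holds a CHR match and CCAAT boxes, whereas Mcm6 holds E2F and CCAAT matches and no CHR match. Over the full windows, a CHR match was found in 24 of 31 windows of mitosis members (77.4%), in 2 of 10 of replication members (20%) and in 0 of 2 of G1 to S regulators, beside 19.2% of all 32851 windows. An E2F match was found in 4 of 10 windows of replication members (40%) and 1 of 31 of mitosis members (3.23%), beside 2.26% of all windows. CCAAT boxes were in 90% of replication and 80.6% of mitosis windows, beside 37.4% of all windows. In the member windows, 4 matches overlap another motif. A match is a description of these letters and says nothing of binding in these livers.

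Among the G1 to S regulators, Ccnd1 encodes cyclin D1, which activates Cdk4 and Cdk6 early in G1. It was at 0.64 and 2.09 in the lovastatin mice, at 0.57 and 1.0 in the fenofibrate mice and at 1.86 and 1.58 in the HFC mice. Its dye-balanced estimate was 1.16 (SE 0.226, limma adjusted p = 0.147), above 0 on 6 of 6 arrays and lowest on the fenofibrate arrays and lovastatin replicate 1. E2f1, a transcription factor that switches on S phase genes, was at -0.11 and 0.15 in the lovastatin mice, at 0.38 and 0.01 in the fenofibrate mice, and at 1.48 in HFC replicate 1 (0.54 put back in HFC replicate 2). HFC replicate 1 thus stood above all other values of E2f1.

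The E-type cyclins, partners of Cdk2 at the start of S phase, had their extreme on 1 array. Ccne1 was at 2.42 and 0.22 in the lovastatin mice, at -0.22 and 0.31 in the fenofibrate mice and at 0.22 and -0.06 in the HFC mice. Ccne2 was at 3.42 and 0.46 in the lovastatin mice, at 0.12 and 0.60 in the fenofibrate mice and at 0.13 in HFC replicate 1 (0.17 put back in HFC replicate 2). Both lovastatin replicate 1 values lie far above the other arrays, on the array with the widest spread over all probes. Without that array no value of either gene exceeded 0.60.

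Among the replication genes, the 6 subunits of the MCM helicase, which unwinds DNA at the fork, differed from one another. Mcm6 was at 0.30 and 0.94 in the lovastatin mice, at 1.41 and 1.43 in the fenofibrate mice and at 0.89 in HFC replicate 1 (-0.21 put back in HFC replicate 2). Its dye-balanced estimate was the highest of the subunits, at 1.09 (SE 0.156, limma adjusted p = 0.113). Mcm4 was at 1.47 and 1.17 in the lovastatin mice, at 0.29 and 0.48 in the fenofibrate mice and at 0.11 and 0.15 in the HFC mice. Its lovastatin values lie apart from the other 4, which do not reach 0.5.

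Mcm2, Mcm3, Mcm5 and Mcm7 were negative on lovastatin replicate 1 and positive on every other array that measured them in place. Mcm2 was at -0.34 and 0.67 in the lovastatin mice, at 0.59 and 0.50 in the fenofibrate mice and at 0.31 in HFC replicate 1. Mcm5 was at -0.13 and 0.68 in the lovastatin mice, at 0.42 and 0.53 in the fenofibrate mice and at 0.45 and 0.43 in the HFC mice. Mcm3 was at -0.30 and 0.78 in the lovastatin mice, at 0.35 and 0.39 in the fenofibrate mice and at 0.28 in HFC replicate 1 (-0.34 put back in HFC replicate 2). For these 3 genes the arrays other than lovastatin replicate 1 and HFC replicate 2 held values between 0.28 and 0.78. Mcm7 was at -0.03 and 0.63 in the lovastatin mice, at 0.45 and 1.09 in the fenofibrate mice and at 0.18 in HFC replicate 1 (0.09 put back in HFC replicate 2).

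The genes of nucleotide supply and the sliding clamp lay close to 0 on most arrays, apart from Rrm2. Rrm2, the regulated subunit of ribonucleotide reductase, was at -0.66 and 0.47 in the lovastatin mice, at 1.02 and 1.24 in the fenofibrate mice and at 0.87 and 0.98 in the HFC mice. The fenofibrate and HFC values of Rrm2 all lie above both lovastatin values. Rrm1, the large subunit of the same enzyme, was at 0.23 and 0.15 in the lovastatin mice, at 0.15 and 0.41 in the fenofibrate mice and at 0.09 and 0.05 in the HFC mice.
Pcna, the clamp that holds polymerases on DNA, was at -0.04 and 0.15 in the lovastatin mice, at -0.09 and 0.16 in the fenofibrate mice and at 0.14 in HFC replicate 1 (0.21 put back in HFC replicate 2). Tyms, thymidylate synthase, averaged over 3 probes of which 2 are displaced, was at -0.24 and 0.04 in the lovastatin mice, at 0.01 and 0.30 in the fenofibrate mice and at -0.09 and 0.45 in the HFC mice. Neither Pcna nor Tyms kept a sign across arrays, and their dye-balanced estimates were 0.07 and 0.10 (limma adjusted p = 0.881 and 0.834). Of the 10 replication members, 0 passed and 5 had an unadjusted p under 0.05, all higher (beside 5.19% of all features), with a median estimate of 0.40.

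Among the genes of S to G2 and mitotic entry, Cdk1 encodes the kinase that drives cells into mitosis. It was at 1.76 and 0.93 in the lovastatin mice, at 0.87 and 1.48 in the fenofibrate mice and at 0.52 in HFC replicate 1 (0.07 put back in HFC replicate 2). Ccna2, cyclin A2, its partner in S phase and G2, was at 1.44 and 0.64 in the lovastatin mice, at 0.54 and 1.63 in the fenofibrate mice and at 0.51 in HFC replicate 1 (0.14 put back in HFC replicate 2). Both were above 0 on all arrays, lovastatin replicate 1 included, and lowest in the HFC mice. Aurka, the Aurora A kinase of centrosomes, was at 0.88 and 1.20 in the lovastatin mice, at 0.91 and 1.42 in the fenofibrate mice and at 0.62 and 0.64 in the HFC mice. Its dye-balanced estimate was 1.0 (SE 0.127, limma adjusted p = 0.0567), just short of the threshold. With displaced spots put back the estimate was again 1.0, with a limma adjusted p of 0.0403. The 1 probe of Aurka is not displaced, so its own values are the same in both fits. The HFC values of Aurka lie below all 4 values of the drug-treated mice.

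Other genes of this group had opposite signs on the 2 lovastatin arrays. Mki67, which encodes the proliferation antigen Ki-67, was at -1.18 and 1.22 in the lovastatin mice, at 1.14 and 1.59 in the fenofibrate mice and at 0.90 and 1.13 in the HFC mice. Top2a, a topoisomerase that untangles sister chromatids, was at -1.31 and 1.47 in the lovastatin mice, at 1.0 and 1.44 in the fenofibrate mice and at 0.35 and 0.17 in the HFC mice. Without lovastatin replicate 1 the dye-balanced estimates were 1.24 for Mki67 and 1.04 for Top2a. That fit leaves 1 lovastatin array, so the disagreement of the 2 lovastatin arrays no longer enters the spread. Plk1, the Polo-like kinase, was at -1.23 and 1.24 in the lovastatin mice, at 1.30 and 1.59 in the fenofibrate mice and at 0.71 in HFC replicate 1. Ccnb2, cyclin B2, was at -0.21 and 1.20 in the lovastatin mice, at 1.02 and 1.18 in the fenofibrate mice and at 0.65 and 0.19 in the HFC mice. Apart from lovastatin replicate 1, each of these 4 genes was above 0 on every array that measured it in place.

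Cks2 and Foxm1 stayed closer to the pool. Cks2, a small subunit that docks on Cdk1, was at -0.20 and -0.18 in the lovastatin mice, at 0.15 and 0.27 in the fenofibrate mice and at 0.20 and 0.36 in the HFC mice. Foxm1, a transcription factor of G2 and mitosis genes, was at 0.02 and -0.33 in the lovastatin mice, at -0.02 and 0.03 in the fenofibrate mice and at -0.24 in HFC replicate 1 (-0.29 put back in HFC replicate 2). No value of either gene was further from 0 than 0.36. Of the 9 measured genes of S to G2 and mitotic entry, 0 passed, 5 had an unadjusted p under 0.05, all higher (beside 5.19% of all features), and the median estimate was 0.90.

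At the kinetochore, the other subunits of the Ndc80 complex did not share the size of the Spc25 ratio. Nuf2 was at 0.69 and 0.71 in the lovastatin mice, at 1.13 and 1.10 in the fenofibrate mice and at 0.53 and -0.12 in the HFC mice, with a dye-balanced estimate of 0.78 (SE 0.131, limma adjusted p = 0.109). Ndc80 was at 0.53 and -0.09 in the lovastatin mice, at -0.27 and 0.88 in the fenofibrate mice and at -0.11 in HFC replicate 1 (-0.78 put back in HFC replicate 2). Spc24, which pairs with Spc25, was at -0.52 and 0.18 in the lovastatin mice, at -0.31 and 0.13 in the fenofibrate mice and at -0.54 in HFC replicate 1 (-0.34 put back in HFC replicate 2). Dye-balanced estimates were thus 2.18 for Spc25, 0.78 for Nuf2, 0.18 for Ndc80 and -0.22 for Spc24. Each comes from 1 probe per gene, and the differences between subunits were not tested.

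The chromosomal passenger complex, which corrects wrong attachments of chromosomes, was represented by its kinase Aurkb and its subunits Birc5 (survivin) and Cdca8 (borealin). Birc5 was at -0.65 and 1.37 in the lovastatin mice, at 1.26 and 1.78 in the fenofibrate mice and at 1.17 and 0.95 in the HFC mice. Aurkb was at -0.67 and 0.74 in the lovastatin mice, at 1.14 and 1.36 in the fenofibrate mice and at 0.89 and 0.64 in the HFC mice. Without lovastatin replicate 1 the dye-balanced estimates were 1.37 for Birc5 and 1.0 for Aurkb, and without lovastatin replicate 2 that of Birc5 was 0.86. Cdca8 was at 0.14 and 0.58 in the lovastatin mice, at 0.62 and 0.77 in the fenofibrate mice and at 0.36 in HFC replicate 1 (0.66 put back in HFC replicate 2). It stayed above 0 on lovastatin replicate 1 too.

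The spindle checkpoint holds back chromosome separation until every kinetochore is attached. Bub1b, its BubR1 kinase, was at 1.36 and 0.72 in the lovastatin mice, at 0.71 and 0.91 in the fenofibrate mice and at 0.55 and 0.52 in the HFC mice, with a dye-balanced estimate of 0.80 (SE 0.133, limma adjusted p = 0.108). Mad2l1, which encodes Mad2, the inhibitor of Cdc20, was at 1.86 and 0.40 in the lovastatin mice, at 0.79 and 1.76 in the fenofibrate mice and at 0.24 in HFC replicate 1 (0.94 put back in HFC replicate 2). Both genes were above 0 on every array. Ttk, the Mps1 kinase, was at 0.28 and 0.11 in the lovastatin mice, at 1.72 and 0.91 in the fenofibrate mice and at 0.31 and -0.53 in the HFC mice. Bub1, the kinase that recruits the others, was at -1.62 and 0.76 in the lovastatin mice, at 1.09 and 1.63 in the fenofibrate mice and at -0.15 and 0.52 in the HFC mice. The fenofibrate values of Ttk and Bub1 lie above all values of the other mice.

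Of the centromere genes, Cenpa, the histone variant that marks centromeres, was at -0.50 and 0.30 in the lovastatin mice, at 0.62 and 1.14 in the fenofibrate mice and at 0.22 in HFC replicate 1 (0.31 put back in HFC replicate 2). Cenpe, a kinesin of the kinetochore with 2 probes of which 1 is displaced, was at -0.72 and 0.84 in the lovastatin mice, at 0.60 and 1.37 in the fenofibrate mice and at 0.59 and -0.24 in the HFC mice. Both had their highest value in fenofibrate replicate 2. Of the 13 kinetochore and checkpoint members 1 passed, Spc25, and 8 had an unadjusted p under 0.05, all higher (beside 5.19% of all features), with a median estimate of 0.68.

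Among the genes of mitotic exit, Cdc20 encodes the activator of the anaphase-promoting complex, which marks cyclin B and securin for destruction. It was at 0.84 and 2.28 in the lovastatin mice, at 1.92 and 1.97 in the fenofibrate mice and at 1.43 in HFC replicate 1 (0.58 put back in HFC replicate 2). Its dye-balanced estimate of 1.72 was the next highest after Spc25 (SE 0.257, limma adjusted p = 0.119). The estimate for Cdc20 was 1.90 without lovastatin replicate 1, its lowest array measured in place, and 1.54 without lovastatin replicate 2, its highest. Ube2c, the ubiquitin-conjugating enzyme of the same complex, was at 0.18 and 1.52 in the lovastatin mice, at 1.09 and 1.47 in the fenofibrate mice and at 0.58 and 0.61 in the HFC mice. It was above 0 on 6 of 6 arrays, and its dye-balanced estimate was 1.17 without lovastatin replicate 1 and 0.83 without lovastatin replicate 2. Cdca3, a trigger of mitotic entry that this complex destroys, was at -0.32 and 1.46 in the lovastatin mice, at 1.29 and 1.87 in the fenofibrate mice and at 1.06 and -0.02 in the HFC mice.

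The genes of the spindle midzone and of cytokinesis were mostly highest in fenofibrate replicate 2. Ect2, which activates RhoA for the cleavage furrow, was at -0.03 and 1.84 in the lovastatin mice, at 1.65 and 2.46 in the fenofibrate mice and at 1.35 and -0.40 in the HFC mice. Racgap1, its partner in the centralspindlin complex, was at -0.98 and 0.52 in the lovastatin mice, at 0.79 and 1.63 in the fenofibrate mice and at 0.59 and 0.07 in the HFC mice. In both genes each group but fenofibrate held 1 array below 0.1. Kif20a, a kinesin of the midzone, was at 0.51 and 1.52 in the lovastatin mice, at 1.0 and 1.69 in the fenofibrate mice and at 0.89 and 0.01 in the HFC mice. Prc1, which bundles midzone microtubules, was at 0.14 and 0.90 in the lovastatin mice, at 0.76 and 0.91 in the fenofibrate mice and at 0.68 in HFC replicate 1 (-0.06 put back in HFC replicate 2). Both stayed above 0 on every array measured in place, with HFC replicate 2 near 0.

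Of the spindle genes, Nusap1, a microtubule-stabilising protein, was at -0.01 and 0.53 in the lovastatin mice, at 1.12 and 1.62 in the fenofibrate mice and at 0.34 in HFC replicate 1 (-0.07 put back in HFC replicate 2). Tpx2, which activates Aurora A on the spindle, was at -2.72 and 1.35 in the lovastatin mice, at 0.87 and 2.51 in the fenofibrate mice and at 0.09 in HFC replicate 1 (0.92 put back in HFC replicate 2). Its lovastatin replicates differed more than those of any other member, and its interval ran from below 0 (-1.19) to 2.59. Hmmr, a spindle protein that also binds hyaluronan, was at -1.13 and -0.03 in the lovastatin mice, at 0.47 and 0.48 in the fenofibrate mice and at 0.14 in HFC replicate 1 (-0.08 put back in HFC replicate 2).
A pair of kinesins lay below 0 in the lovastatin mice. Kif11, the motor that separates spindle poles, was at -0.20 and -0.30 in the lovastatin mice, at -0.60 and 1.08 in the fenofibrate mice and at 0.24 and 0.11 in the HFC mice. Kif2c, which takes microtubule ends apart, was at -1.37 and -0.41 in the lovastatin mice, at 0.86 and 0.02 in the fenofibrate mice and at 1.33 in HFC replicate 1 (-0.17 put back in HFC replicate 2). Of the 12 members of this group 0 passed, 7 had an unadjusted p under 0.05, all higher (beside 5.19% of all features), and the median estimate was 0.78.

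By stage, mitosis members had a median of -0.12 and 0.75 on the lovastatin arrays, 0.89 and 1.43 on the fenofibrate arrays and 0.54 and 0.18 on the HFC arrays. Replication members had a median of -0.08 and 0.65 on the lovastatin arrays, 0.38 and 0.49 on the fenofibrate arrays and 0.23 and 0.43 on the HFC arrays. Mitosis members therefore lay above replication members on both fenofibrate arrays, with a smaller gap on HFC replicate 1 and lovastatin replicate 2 and the opposite order on lovastatin replicate 1 and HFC replicate 2. Put back, HFC replicate 2 gave 0.14 for the mitosis and 0.15 for the replication members.

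Other genes of the cycle, drawn from lists outside the members, gave smaller ratios. Of 64 other mitosis genes tested in the dye-balanced comparison, 1 rose, 0 fell, 25 were higher and 1 lower at an unadjusted p under 0.05, and the median was 0.47. At that unadjusted level 5.19% of all features were higher and 5.63% lower. Nek2, a centrosome kinase, was the one that rose (1.54, SE 0.143, limma adjusted p = 0.0470). It was at 0.65 and 1.10 in the lovastatin mice, 1.98 and 2.20 in the fenofibrate mice and 1.10 in HFC replicate 1. Put back, HFC replicate 2 was at 0.57, its lowest value, and the estimate rests on HFC replicate 1 alone for that group. Stmn1, stathmin, which destabilises microtubules (1.46, limma adjusted p = 0.0943), and Shcbp1 (0.85, limma adjusted p = 0.111) followed. Of 43 other replication genes 0 passed, 9 were higher and 2 lower at an unadjusted p under 0.05, and the median was 0.20. Mcm10, which helps to load the replicative polymerases, was at -0.62 (limma adjusted p = 0.203), the licensing factor Cdc6 at 0.89 (limma adjusted p = 0.294) and its partner Cdt1 at 0.47 (limma adjusted p = 0.295). In these lists, as among the members, the mitosis genes had the higher median.

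Genes that restrain or precede the cycle had medians close to 0. Of 35 CDK inhibitors and G1 control genes 0 passed, 6 were higher and 3 lower at an unadjusted p under 0.05 (beside 5.19% and 5.63% of all features), and the median was 0.13. Cdkn1a, the inhibitor p21, was at 0.48 and 1.05 in the lovastatin mice, 1.05 and 1.19 in the fenofibrate mice and 2.20 in HFC replicate 1 (1.31 put back in HFC replicate 2). Its dye-balanced estimate was 1.30 (SE 0.151, limma adjusted p = 0.0769), above 0 on each of these arrays and highest in the HFC mice. Gadd45b, a stress-induced gene of growth arrest, was at 1.62 (limma adjusted p = 0.107) and E2f2 at 0.75 (limma adjusted p = 0.166). Of 15 growth factor and early response genes 0 passed, 1 was higher and 4 lower at an unadjusted p under 0.05. Igfbp1, a liver-secreted binding protein, was at -2.29 (limma adjusted p = 0.0907), the receptor Egfr at -0.91 (limma adjusted p = 0.111) and Socs3, an inhibitor of cytokine signalling, at 1.04 (limma adjusted p = 0.177).

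**Figure D3:**
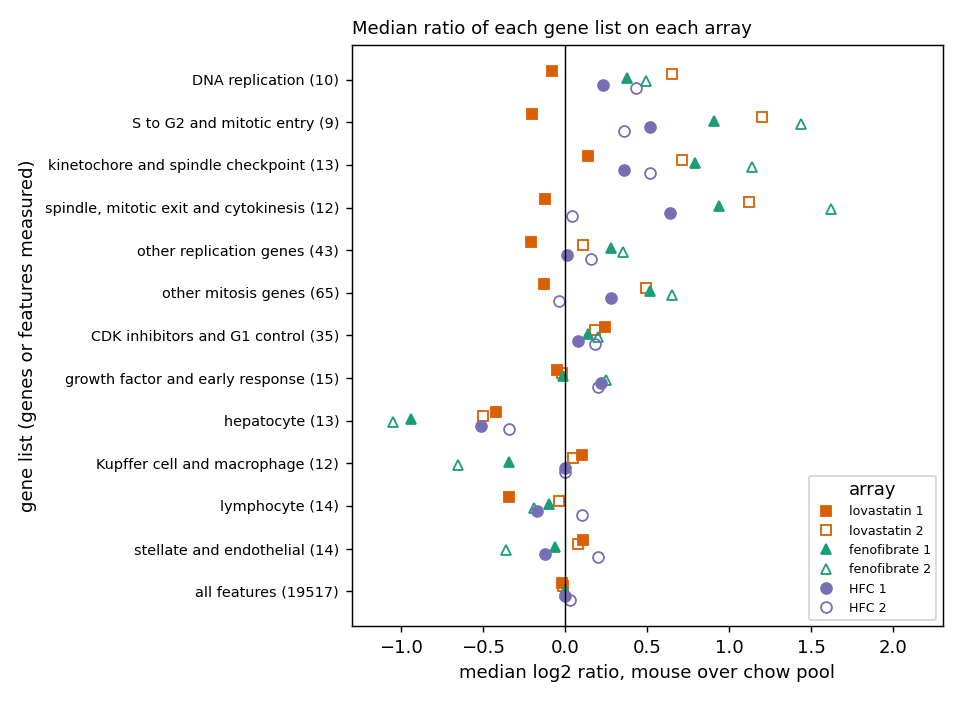
Median log2 ratio over the chow pool of each gene list (rows, number of genes in parentheses) on each array (squares, lovastatin; triangles, fenofibrate; circles, HFC; filled for replicate 1, open for replicate 2). The replication list and the 3 mitosis lists of the members lie at 0.49 to 1.62 on fenofibrate replicate 2, while the hepatocyte markers lie below 0 on every array and lowest on the fenofibrate arrays (-0.94 and -1.05).

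Among markers of liver cell types, those of hepatocytes and Kupffer cells had their lowest medians on the fenofibrate arrays. Of 13 measured hepatocyte markers, 0 were above 0 in the dye-balanced comparison and 11 had an unadjusted p under 0.05, all lower (beside 5.63% of all features), with 0 past the threshold. Those outside the 11 were Fga (-0.21) and Hnf4a (-0.11). The median of all 13 was -0.42 and -0.50 on the lovastatin arrays, -0.94 and -1.05 on the fenofibrate arrays and -0.51 and -0.34 on the HFC arrays. The arrays with the highest mitosis medians thus have the lowest hepatocyte medians. Those are the fenofibrate arrays, with the mouse in Cy3, so hepatocyte content, a response of these genes to the drug and dye cannot be told apart. The 12 Kupffer cell and macrophage markers had a median of 0.10 and 0.05 on the lovastatin arrays, -0.34 and -0.65 on the fenofibrate arrays and 0.00 on both HFC arrays. Lymphocyte markers (14 measured) had array medians between -0.34 and 0.10, stellate and endothelial markers (14) between -0.36 and 0.20, and cholangiocyte markers (7) between -0.10 and 0.30. Erythroid and haematopoietic markers (8) lay between -0.38 and -0.20, and 1 of them, Nfe2, a transcription factor of red cell precursors, fell (-2.41, limma adjusted p = 0.0242). In the dye-balanced comparison no marker list other than that of cholangiocytes had a gene higher at an unadjusted p under 0.05, and that list had 1. Their part in the results on the cycle was not tested.

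The HFC mice against the chow pool ask what the diet did without a drug, with the mouse in Cy5 on both arrays, so that any gene-specific dye effect is included. No member passed by limma, as was true of all features (0 of 19499, 0%), and 921 features (4.72%) had an unadjusted p under 0.05. The members' median was 0.34 against 0.01 over all features, and 44 of 48 were above 0. Of the members 5 (10.4%) had an unadjusted p under 0.05 and a higher estimate, beside 2.28% of all features, and 0 members had a lower one, beside 2.44%. The 5 were Spc25 (1.75, SE 0.292, limma adjusted p = 0.528), Ccnd1 (1.72, SE 0.369, limma adjusted p = 0.669), E2f1 (1.48, SE 0.296, limma adjusted p = 0.707), Rrm2 (0.93) and Aurka (0.63). For Spc25 and E2f1 the value is that of HFC replicate 1 alone. Put back, 7 members (14.6%) had such a p, beside 3.37% of all features. Leaving out either lovastatin array acts on this comparison through the shared spread alone and leaves its estimates as they are.

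In the lovastatin mice against the chow pool, likewise in Cy5, no member passed by limma (0 of 19501 features, 0%; 2064 had an unadjusted p under 0.05). The median was 0.25 against -0.01 over all features, and 36 of 48 members were above 0. Of the members 11 (22.9%) had an unadjusted p under 0.05 and a higher estimate, beside 4.62% of all features, and 0 members had a lower one, beside 5.96%. An estimate of 1 or more was found for 12 members (25%), beside 5.28% of all features. The smallest p-values belonged to Spc25 (1.89, SE 0.206, limma adjusted p = 0.219), Mcm4 (1.32, SE 0.179, limma adjusted p = 0.220), Aurka (1.04, SE 0.208, limma adjusted p = 0.384), Bub1b (1.04, SE 0.217, limma adjusted p = 0.393) and Cdk1 (1.35, SE 0.305, limma adjusted p = 0.428). These 5 are genes whose 2 lovastatin arrays have the same sign. The count rests on which lovastatin array is used. Without lovastatin replicate 1, 22 members (45.8%) had such a p and 0 a lower estimate with one, beside 2.55% and 3.24% of all features. Without lovastatin replicate 2, 10 members (20.8%) were higher and 10 (20.8%) lower, beside 17.9% and 18.0% of all features, so the members were then close to the background.

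In the fenofibrate mice against the chow pool, with the mouse in Cy3, no member passed by limma (0 of 19470 features, 0%; 1483, or 7.62%, had an unadjusted p under 0.05). The median was 1.04 against 0.00 over all features, and 47 of 48 members were above 0. Both arrays were above 0 for 42 members (87.5%), as for 30.2% of all features, and 24 members (50%) had an estimate of 1 or more, beside 1.70% of all features. Of the members 24 (50%) had an unadjusted p under 0.05 and a higher estimate, beside 3.85% of all features, and 0 members had a lower one, beside 3.76%. Spc25 (2.54, SE 0.206, limma adjusted p = 0.107), Aurka (1.17, SE 0.208, limma adjusted p = 0.249), Nuf2 (1.11, SE 0.214, limma adjusted p = 0.275), Mcm6 (1.42, SE 0.236, limma adjusted p = 0.279) and Nusap1 (1.37, SE 0.251, limma adjusted p = 0.318) had the smallest p-values. By role, 9 of 13 kinetochore and checkpoint genes, 8 of 12 spindle and exit genes, 4 of 9 genes of S to G2, 3 of 10 replication genes and 0 of 4 G1 to S regulators were among the 24.

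Lovastatin against HFC compares mice on the same diet with the same dye, so a gene-specific dye effect cancels. No member passed by limma (0 of 19485 features, 0%; 390 had an unadjusted p under 0.05), and the median difference was -0.06 against -0.02 over all features, with 22 members above 0 and 26 below. At an unadjusted p under 0.05, 1 member was higher and 2 were lower, which is 6.25% of the members beside 2.0% of all features. A difference of 1 or more was found for 3 members, beside 5.47% of all features. Mcm4 was higher (1.19, 95% interval 0.55 to 1.83), and E2f1 (-1.46, interval -2.44 to -0.49) and Kif2c (-2.22, interval -3.87 to -0.57) were lower, each with a limma adjusted p of 0.972. For E2f1 and Kif2c the HFC value is that of replicate 1 alone. Put back, the differences were -0.99 for E2f1 and -1.47 for Kif2c, and Kif2c no longer met that level. In order of p, Rrm2 (-1.02) and Cks2 (-0.47) followed these 3 genes, both with the lovastatin values below the HFC values. Over the members the intervals reached a median of 1.32 on either side of the estimate, so differences of that size lie within the error.

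Fenofibrate against HFC compares mice on the same diet in opposite dyes. No member passed by limma (0 of 19456 features, 0%; 559 had an unadjusted p under 0.05). The median difference was 0.47 against -0.02 over all features, and 41 of 48 members were above 0, beside 47.9% of all features. Ttk was higher (1.43, 95% interval 0.35 to 2.5), as was Nuf2 (0.91, interval 0.15 to 1.67), and E2f1 was lower (-1.29, interval -2.26 to -0.31), at an unadjusted p under 0.05 and limma adjusted p = 1. For E2f1 the HFC value is that of replicate 1 alone, and put back the difference was -0.81 and no longer met that level. Those 3 are 6.25% of the members, beside 2.87% of all features (1.49% higher and 1.39% lower). A difference of 1 or more was found for 7 members (14.6%), beside 2.45% of all features. In order of p, Nusap1 (1.03) and Spc25 (0.80) followed Ttk, Nuf2 and E2f1. This is not an order of size, since the highest difference of a member was 1.6. All 13 kinetochore and checkpoint members and 11 of 12 spindle and exit members had a positive difference, whereas 1 of 4 G1 to S regulators had. Here too, leaving out either lovastatin array acts through the shared spread alone and leaves the estimates as they are. Put back, 4 members (8.33%) were higher and 0 lower at an unadjusted p under 0.05, beside 1.97% and 2.0% of all features.

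**Figure D4:**
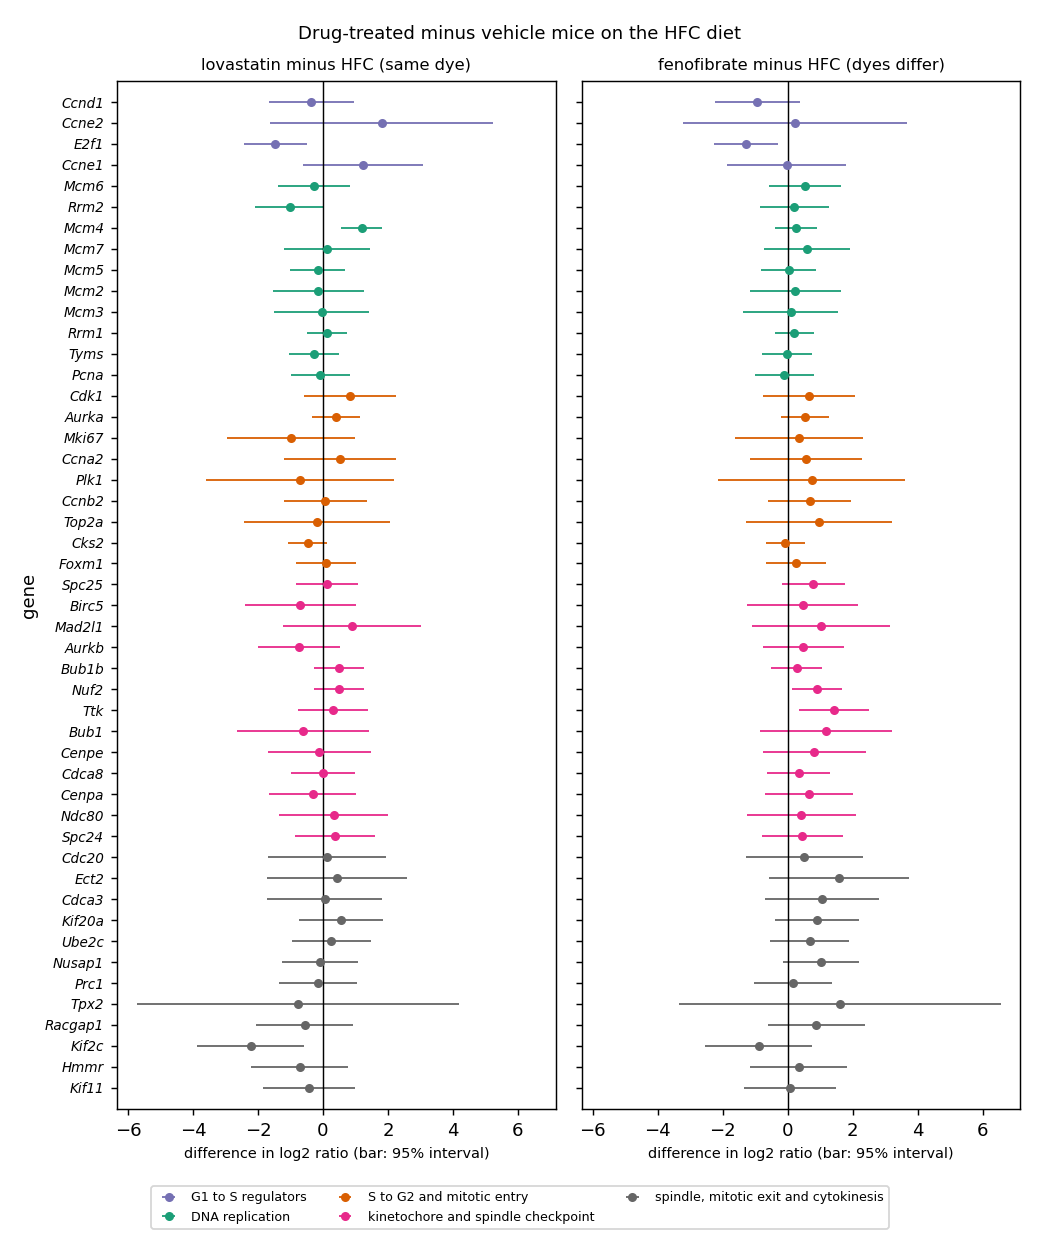
Difference in log2 ratio of each member between drug-treated and vehicle-treated mice on the HFC diet (points, coloured by role) with its 95% interval from the limma fit (bars), lovastatin minus HFC on the left and fenofibrate minus HFC on the right. Lovastatin differences fall on both sides of 0 (22 above, 26 below), while 41 of 48 fenofibrate differences lie above 0, and most intervals in both panels include 0.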

How the data were processed

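The authors deposited a single log2 ratio, as read here, for every spot of every array. How they scanned, corrected and normalized the arrays is not given in the sources used here. Per the labels' protocols, 0.5 µg of total RNA was labelled with a linear amplification kit. A control at -9.71 is beyond what 16-bit signals allow in base 10. That does not settle the base, and base 2 was taken by convention. Dim probes were not filtered, for lack of intensities, and precision is limited by the number of arrays.

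Of 22575 spots, 726 held no value and 561 repeated control spots were left out. The platform annotation gives 1 symbol for 18658 of the 21288 probes used, several for 30 spots and none for 3887. Entrez numbers placed 18445 probes in the gene table, and 0 symbols changed. Probes of a gene were averaged, giving 19517 features with unnamed probes. Displaced spots of HFC replicate 2 were set to missing, and a group with 1 value left takes its spread from the other arrays. The same holds for a group left with 1 array, where the disagreement of its pair no longer enters the spread.

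Group means were fitted over the 6 arrays in R 4.3.3 with statmod 1.5.0 and limma 3.58.1 (3 residual degrees of freedom without missing values, prior 2.37), with Benjamini-Hochberg adjustment over all features and a threshold of 0.05. The fit was also run on simulated data in which each gene had the same spread on all arrays. Such data cannot show how the fit handles the wider spread of lovastatin replicate 1. Replicates are single mice, and the ratio against 0 leaves out the spread between chow mice. Replicate numbers were not treated as pairs: the correlations of replicate differences between groups were -0.0241, -1e-04 and 0.0311. Such correlations cannot settle whether the mice are paired. Promoter windows came from RefSeq (GRCm38.p6). Tables and figures were made with Python 3.11.15, pandas 2.3.3, numpy 2.4.6 and matplotlib 3.10.9.

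Members, gene lists and settings were chosen with earlier results of these data known. Values on every array were required for a fixed set of members, for those past the threshold, for the 5 of smallest p per comparison and for those with 1 sign on all arrays and a mean size of 0.5 or more. From the other lists, genes past the threshold and the 3 of smallest p in the dye-balanced comparison were named.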

Additional observations from a re-analysis of the deposited data

Results flagged for a closer look

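Of the 25 members measured in place on both HFC arrays, 2 had both lovastatin arrays on one side of 0 and both HFC arrays on the other. The share of all features with this pattern was not counted, so the 2 members are a description only. For Cks2, which docks on Cdk1, the lovastatin mice were at -0.20 and -0.18 and the HFC mice at 0.20 and 0.36, a difference of -0.47 (limma adjusted p = 0.972). For Kif11, the motor that separates spindle poles, the lovastatin mice were at -0.20 and -0.30 and the HFC mice at 0.24 and 0.11, a difference of -0.42 (limma adjusted p = 0.974). Neither difference passed the threshold.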

How the results depend on the processing

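Removing the noisiest 10% of features left 41 members to test. That filter uses the same spread as the test, so it can raise the count by itself. With array weights, both arrays of a group had the same weight (0.511 for lovastatin, 1.24 for HFC and 1.58 for fenofibrate). Such weights do not single out lovastatin replicate 1. Of the comparisons with the chow pool, the dye-balanced one held the 1 member call, Spc25, and its count of called members depended most on the setting. It was 0 with displaced spots as deposited, 2 with them put back (Spc25 and Aurka), 0 with arrays scaled to one spread, 7 without the noisiest 10% of features, 5 with array weights, 0 with the replicate block, 0 with the fenofibrate sign turned, and 0 without HFC replicate 2 and lovastatin replicate 1, an alternative chosen after seeing the data. Leaving out 1 array gave 0 to 14 (13 without lovastatin replicate 1, 14 without lovastatin replicate 2, and 0 without HFC replicate 1, where 25 members could be tested and Spc25 could not, or either fenofibrate array). Over all features the same count was 110 in the values reported, and 67, 189, 2, 344, 230, 0, 0 and 22 under those settings in the same order. It was 5 without HFC replicate 1, 25 without HFC replicate 2, 228 and 824 without lovastatin replicate 1 or 2, and 0 without either fenofibrate array.

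For lovastatin against the pool the count of members was 1 without the noisiest features (44 of 17555 features), and 0 to 13 leaving out 1 array (13 without lovastatin replicate 2, where 3805 features, 20.0%, passed). Then Mki67 (-1.18, limma adjusted p = 0.0373) and Top2a (-1.31, limma adjusted p = 0.0276) turned their direction, as the widest array was left alone, while without lovastatin replicate 1 they were at 1.22 and 1.47. For fenofibrate against the pool it was 1 with spots put back, without the noisiest features or with array weights (32, 100 and 111 features), and the median was -1.04 with its sign turned and 0.78 to 1.12 leaving out 1 array. For lovastatin against HFC leaving out 1 array gave 0 to 4 members (4 without lovastatin replicate 2: Ccne1 and Ccne2 higher, Rrm2 and Mki67 lower, 8.33% of the members beside 1184 features, 6.23%) and medians of -0.49 to 0.22. For fenofibrate against HFC the median was -1.52 with the sign turned and 0.28 to 0.70 leaving out 1 array. With the sign turned the dye-balanced median was -0.24 and Spc25 was at -0.36 (limma adjusted p = 0.903). With the replicate block Spc25 was at 2.16 (limma adjusted p = 0.102), where 0 features passed in any comparison. That setting treats the replicate numbers as pairs, which the values reported do not. Centring, single probes, a robust prior and fits on the compared arrays alone changed 0 member calls. Where not stated, the cause was not tested.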
